A study of Homo sapiens with 6 samples.

Results

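The genes described here are the extracellular metalloproteases, their inhibitors and the plasminogen activator system of a human melanoma cell line. They were chosen by symbol: every protein-coding gene of the deposited count table named MMP, ADAM, ADAMTS or TIMP with a number, together with PLAU, PLAT, PLAUR and PLG. The rule found 70 genes among 60504 listed, of which 19664 were protein-coding, and comprised 23 MMP, 20 ADAM, 19 ADAMTS and 4 TIMP genes and the 4 plasminogen genes. Of these, 36 had enough reads to be tested and 34 did not. A gene that passes such a filter because it is high in only 1 group is bound to differ, so the counts of changed genes below describe the 36 tested genes and not the whole family.

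Matrix metalloproteases (MMPs) are zinc enzymes that cut collagens and other matrix proteins, and most are made as inactive proenzymes. The membrane-anchored MMP14 (MT1-MMP) both degrades collagen at the cell surface and, with TIMP2 bound to it as a bridge, activates proMMP2, while an excess of TIMP2 blocks it. TIMPs are the secreted inhibitors of these enzymes. ADAMs are transmembrane proteases that shed receptors, ligands and adhesion molecules, and ADAMTS enzymes are secreted proteases that cleave proteoglycans, process procollagen or act on other matrix substrates. Plasminogen activators (uPA, encoded by PLAU, and tPA, encoded by PLAT) convert plasminogen to plasmin, a broad protease, and PLAUR encodes the receptor that holds uPA at the cell surface. In melanoma these systems are known for their part in invasion through the dermis.

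The study asked what raising the histone deacetylase HDAC8 does to melanoma cells. RNA was sequenced from SK-MEL-28, an established BRAF-mutant human melanoma line, carrying either an empty vector (EV) or a plasmid that expresses HDAC8, with 3 libraries of each. The methods describe lipofection and maintenance in hygromycin for both, and the sources used here do not say whether each was a pool or a single clone. The libraries are numbered as bioreps, and where they are not separate cultures the p-values measure only the spread between these samples, which may be technical.

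Libraries held between 20850021 and 29822903 reads assigned to genes, and the 70 genes took 0.262% to 0.287% of them. The introduced gene did not separate the labels. HDAC8 itself stood at 16.6, 15.2 and 11.8 CPM (reads scaled to the TMM library size) in the libraries labelled EV and at 14.2, 15.2 and 13.5 CPM in those labelled HDAC8. The groups overlapped (log2 difference -0.02, SE 0.13, edgeR quasi-likelihood adjusted p = 0.924), so every direction below is between libraries labelled HDAC8 and libraries labelled EV, and rests on the labels alone. Whether these counts capture the transcript of the plasmid was not tested. All 8 melanocyte-lineage marker genes examined passed the filter, with a summed level per length of 4947 to 5789 TPM in the EV libraries and 5235 to 6551 TPM in the HDAC8 libraries. Among markers of other cell types, the fibroblast list of 7 genes summed to 40.9 to 53.7 TPM against 49.7 to 64.7 TPM, mostly through LUM, and the endothelial list of 5 genes summed to at most 1.22 TPM in any library. The leukocyte list of 6 genes summed to 37.3 to 44.5 TPM against 33.9 to 39.3 TPM and the epithelial list of 6 to 77.1 to 87.6 TPM against 84.0 to 87.2 TPM, each with only 1 or 2 genes above the filter. Their defining genes were at or near 0, with CD3E at 0 in every library and PTPRC, EPCAM and CDH5 at no more than 1 read. LUM rose in the HDAC8 libraries, as did KRT18 of the epithelial list, and of the melanocyte genes 4 rose and 3 fell. These sums describe which cell types' genes were present, and the part of these genes in the results below was not tested. In bulk RNA, fewer cells of a type and less RNA per cell cannot be told apart.

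Over the 36 tested genes, the share that differed between groups was above that of all genes, and in the fit on all 6 libraries more of them were lower in the HDAC8 libraries than higher. A gene is said to rise or fall where its Benjamini-Hochberg adjusted p over all 16195 tested genes was below 0.05 in edgeR's quasi-likelihood test. By that rule 5 members rose, against a background of 11.1% of all tested genes, 10 fell, against 11.7%, and 21 did not pass. Members that passed in either direction were thus 41.7% of those tested, and the background for either direction was 22.7%. With a log2 difference of at least 0.58 also required, PLAUR and ADAM22 rose (background 4.07%) and ADAM19, MMP15, ADAMTS6, ADAMTS14 and ADAMTS17 fell (background 3.45%), together 19.4% of the members tested against 7.52% of all genes. ADAMTS6 and ADAMTS14 would not have reached the filter without the EV libraries, so the filter favoured their place among the genes that fell. The excess of lower genes was not kept in every fit that left out a library. Without EV replicate 1 or EV replicate 2 the members lower at any fold numbered 5 in each case, as many as were higher. Without EV replicate 1, those past the fold threshold numbered 2 lower and 2 higher. ADAM17 and ADAMTS9 lost their calls in some of these smaller fits, at differences of -0.23 to -0.17 and -0.24 to -0.20. Whether single libraries or the smaller groups lowered the counts was not tested. Without EV replicate 2 or HDAC8 replicate 1, 3 members were lower past the fold threshold. The 3 HDAC8 libraries all lay above the 3 EV libraries in 8 members (background 18.7%) and all below them in 12 (background 19.4%). The median log2 difference was -0.20 over the members and 0.01 over all tested genes. By family, 2 MMPs rose and 2 fell of 11 tested, 1 ADAM rose and 2 fell of 10, no ADAMTS rose and 4 fell of 10, and 1 TIMP rose and 1 fell of 3.

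**Figure D1:**
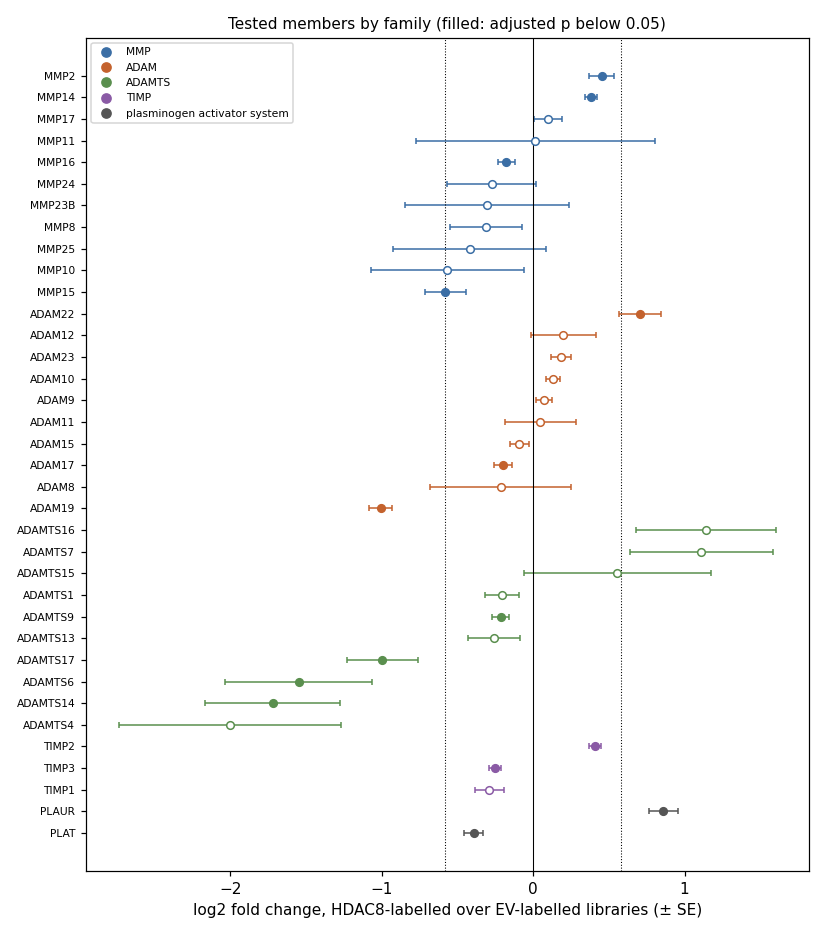
Log2 difference of each tested gene, HDAC8-labelled over EV-labelled libraries (x axis), with bars of 1 standard error from edgeR; genes are grouped and coloured by family on the y axis, filled points had an adjusted p below 0.05, and dotted lines mark log2 differences of 0.58 either way. MMP14, TIMP2 and MMP2 lie together between 0.38 and 0.45, PLAUR and ADAM22 lie furthest to the right of those that rose, and ADAM19 and the low-count ADAMTS14, ADAMTS6 and ADAMTS17 lie furthest to the left of those that fell.

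The levels of these genes spanned several orders of magnitude, and a handful accounted for most of the RNA. Levels of different genes are compared here per length, as TPM computed from counts and exonic length. That length joins all annotated exons of a gene, so it can exceed the main transcript and lower the rank of the gene. MMP14 was the most abundant member, at 454 ± 38.5 TPM (SD, n = 3) in the EV libraries, and made up 75.1% to 76.2% of all MMP TPM there. TIMP3 followed at 240.4 ± 25.5 TPM, then TIMP1 at 183 ± 15.1 TPM and TIMP2 at 179.9 ± 14.7 TPM, whose ranges over libraries overlapped each other but not those of TIMP3. MMP16 (MT3-MMP) stood next at 63.3 ± 10.9 TPM, clear of ADAM15 and ADAM10, whose ranges overlapped at 47.1 ± 3.39 and 44.5 ± 5.29 TPM. PLAT and MMP17 (33.7 ± 1.37 and 31.3 ± 1.33 TPM) also overlapped, and MMP2, ADAM9, ADAM23 and ADAM19 formed a run of overlapping neighbours from 25.3 ± 2.63 down to 21.4 ± 1.57 TPM. PLAUR stood at 9.69 ± 0.0835 TPM, and ADAMTS4, at 0.185 TPM on average, was the lowest of those tested. In the HDAC8 libraries MMP14 was again the highest, and among the inhibitors TIMP2 moved from rank 4 to rank 2, at 214.1 ± 25.0 TPM, and TIMP3 to rank 3, at 180.2 ± 15.5 TPM. The ranges of TIMP2 (196.5 to 242.7 TPM) and TIMP3 (166.9 to 197.2 TPM) overlapped there. Further down, PLAUR moved from rank 17 to 13, PLAT from 8 to 11 and ADAM19 from 13 to 16, and among the low-count genes ADAMTS14 moved from 27 to 34 and ADAMTS16 from 33 to 27. Each of these also overlapped a neighbour in rank in the HDAC8 libraries, so their exact ranks are not resolved. Differences between groups are read on the CPM scale and not from TPM, because the median tested gene was 0.15 lower on the log2 TPM scale in the HDAC8 libraries, and genes shorter than 500 bases took between 32.8% and 47.4% of TPM in the 6 libraries.

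**Figure D2:**
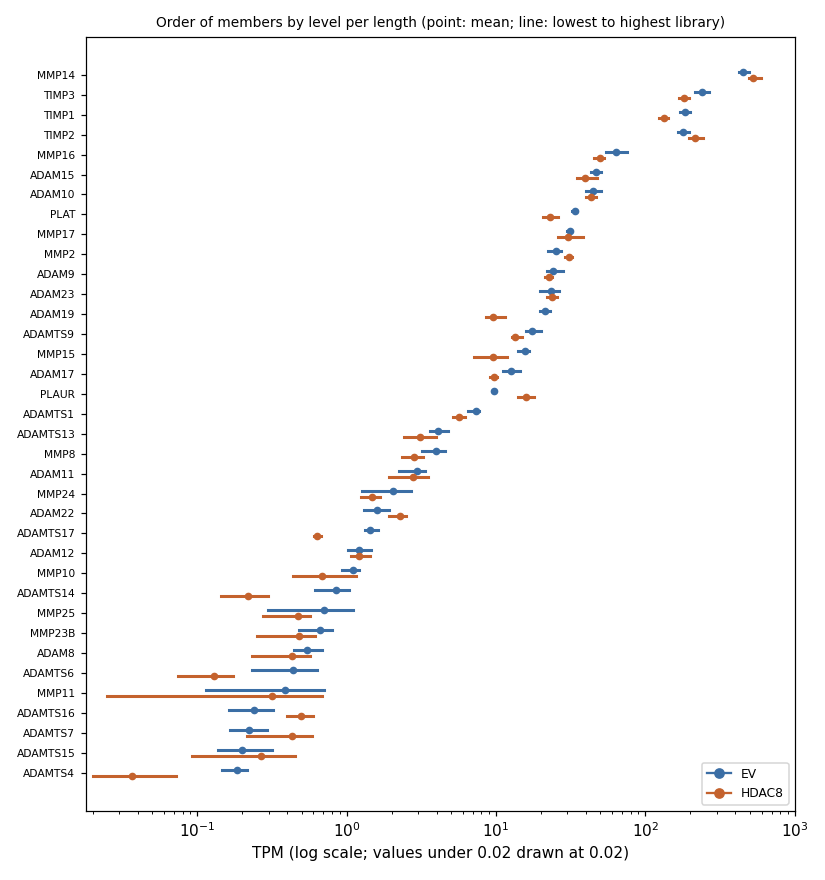
Level of each tested gene in TPM (x axis, log scale), in order of its mean in the EV libraries, with points for the mean of 3 libraries and lines from the lowest to the highest library. MMP14 and the 3 TIMPs stand above all other members in both groups, and PLAUR, below ADAM19 in the EV libraries, stands above it in the HDAC8 libraries.

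The MMP14, TIMP2 and MMP2 genes, whose products form the proMMP2 activation complex, all rose in the HDAC8 libraries. MMP14 (ENSG00000157227, chr14:22836560-22849041, GRCh38) measured 674.7, 651.8 and 676.4 CPM in the EV libraries and 843.1, 877.4 and 885.5 CPM in the HDAC8 libraries. The 3 HDAC8 values were all above the EV values, with a gap wider than the spread within either group, and the rise was 0.38 on the log2 scale (SE 0.04, edgeR adjusted p = 3.45e-05). The RefSeq promoter of MMP14, from 250 bases before to 50 after the annotated start (GRCh38.p14, chr14:22836335-22836634, plus strand), is shown because this gene carries most of the MMP RNA. Capitals mark a GC box, GGGCGG, at 66 to 61 bases before the start (offsets -66 to -61).
MMP14 promoter: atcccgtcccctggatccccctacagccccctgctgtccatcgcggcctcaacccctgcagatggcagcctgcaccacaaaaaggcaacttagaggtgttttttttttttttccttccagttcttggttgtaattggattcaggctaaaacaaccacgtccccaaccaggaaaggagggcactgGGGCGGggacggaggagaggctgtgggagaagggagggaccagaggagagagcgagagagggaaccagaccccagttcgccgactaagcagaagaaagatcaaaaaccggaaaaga

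TIMP2 (ENSG00000035862, chr17:78852977-78925387) measured 361.7, 344.9 and 358.6 CPM in the EV libraries and 460.4, 471.5 and 482.1 CPM in the HDAC8 libraries, a rise of 0.41 on the log2 scale (SE 0.04, edgeR adjusted p = 2.79e-05). MMP2 (gelatinase A, ENSG00000087245, chr16:55389700-55506691) measured 34.5, 36.7 and 42.4 CPM against 54.5, 52.4 and 48.7 CPM, a rise of 0.45 (SE 0.08, edgeR adjusted p = 0.00205). For both genes every HDAC8 library lay above every EV library, with a narrower gap for MMP2 than for TIMP2. The 3 rises were of similar size, and the proportions between the genes moved little. TIMP2 stood at 0.399, 0.394 and 0.395 of the MMP14 level per length in the EV libraries and at 0.407, 0.400 and 0.405 in the HDAC8 libraries, and MMP2 at 0.0503 to 0.0616 against 0.0540 to 0.0635. The MMP2 ratios overlapped between groups, and the TIMP2 ratios did not, although they lay close together. No test was applied to these ratios. The 20 nearest genes of at least 10 CPM had median log2 differences of 0.08 around MMP14, 0.01 around TIMP2 and -0.02 around MMP2. TIMP2 overlaps the same-strand gene CEP295NL (30 to 66 reads) and the antisense AC022966.1, which had 183, 198 and 296 reads in the EV libraries and 399, 297 and 343 in the HDAC8 libraries, and whose reads could not be told apart from those of TIMP2 if strand was not used in counting.

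**Figure D3:**
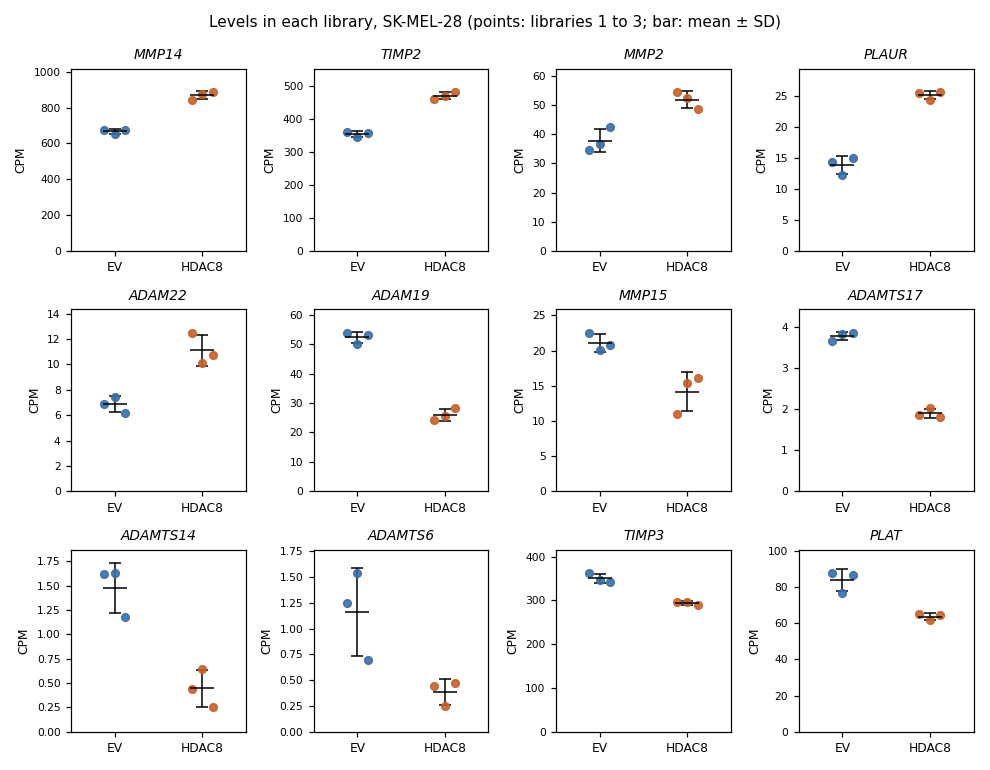
Level of each named gene in every library (y axis, CPM; each panel has its own scale), with points for libraries and bars for the mean and SD of 3. For MMP14, TIMP2, MMP2 and PLAUR all HDAC8-labelled libraries lie above all EV-labelled ones, and for TIMP3, PLAT and ADAM19 they lie below.

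Of the other inhibitors TIMP3 fell, TIMP1 did not pass and TIMP4 was not tested. TIMP3, a matrix-bound inhibitor that also blocks ADAM17, measured 361.8, 347.2 and 343.0 CPM in the EV libraries and 296.6, 296.4 and 290.0 CPM in the HDAC8 libraries, and fell by 0.25 on the log2 scale (SE 0.04, edgeR adjusted p = 0.00109). TIMP1, which inhibits MMP14 poorly, measured 85.4, 81.9 and 85.3 CPM against 70.5, 79.5 and 56.9 CPM. All HDAC8 values of TIMP1 lay below the EV values, but they were spread widely and the difference of -0.29 (SE 0.10) did not pass (edgeR adjusted p = 0.0504). It passed in 6 of 11 alternative settings, among them every one that kept all 6 libraries. Of the fits that left out a library, only the one without HDAC8 replicate 2 passed, at 0.00847 (edgeR). Across the alternative settings tried its adjusted p ran from 0.000137 to 0.147. TIMP4 had 2 to 12 reads per library, and its groups overlapped. Relative to MMP14 within each library, TIMP3 stood at 0.539, 0.536 and 0.510 in the EV libraries and 0.354, 0.340 and 0.329 in the HDAC8 libraries, and TIMP1 at 0.405, 0.402 and 0.403 against 0.267, 0.290 and 0.205. The TIMP2 share of all TIMP TPM was 29.6% to 30.2% in the EV libraries and 38.8% to 43.1% in the HDAC8 libraries. None of these ratios and shares overlapped between groups, and they were not tested either. TIMP1 and TIMP3 lie within introns of SYN1 and SYN3, on the opposite strand, and these had at most 29 and 44 reads.

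**Figure D4:**
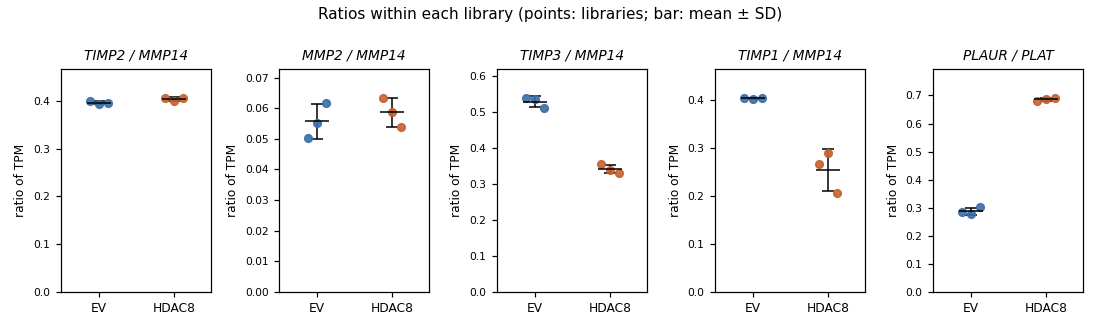
Ratios of levels per length (y axis, ratio of TPM from 0) within each library for 5 gene pairs, with points for libraries and bars for the mean and SD of 3. TIMP2 over MMP14 stays near 0.400 in both groups, while TIMP3 and TIMP1 over MMP14 are lower and PLAUR over PLAT is higher in the HDAC8-labelled libraries.

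Among the remaining membrane-anchored MMPs, all of which were tested, MMP15 fell. MMP15 (MT2-MMP, a further activator of proMMP2) measured 22.5, 20.1 and 20.8 CPM in the EV libraries and 10.97, 15.4 and 16.1 CPM in the HDAC8 libraries, with no overlap, a fall of 0.58 on the log2 scale (SE 0.13, edgeR adjusted p = 0.00818). It sits just inside the fold threshold, and HDAC8 replicate 1 was well below the other two. Without that library the difference was -0.42 and without EV replicate 1 it was -0.53, both still with an adjusted p below 0.05. MMP16 went from 241.9 ± 15.6 to 213.6 ± 9.05 CPM, a fall of 0.18 (SE 0.06, edgeR adjusted p = 0.0376) that no longer passed without any 1 of 5 libraries (every one but HDAC8 replicate 1), with adjusted p from 0.0503 to 0.141. MMP17 (MT4-MMP, GPI-anchored) measured 40.0 ± 2.81 and 42.8 ± 5.63 CPM, MMP24 (MT5-MMP) 2.79 ± 0.768 and 2.29 ± 0.340 CPM, and MMP25 (MT6-MMP) 1.05 ± 0.526 and 0.791 ± 0.287 CPM. These 3 overlapped between groups, as did MMP23B, at 0.458 ± 0.0797 and 0.376 ± 0.153 CPM.

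Secreted MMPs other than MMP2 were scarce. Of 16 secreted MMPs only 4 were tested, and besides MMP2 none of these passed: MMP8 (neutrophil collagenase) measured 4.31 ± 0.626 and 3.48 ± 0.857 CPM, MMP10 (stromelysin-2) 0.618 ± 0.0686 and 0.416 ± 0.200 CPM, and MMP11 (stromelysin-3) 0.600 ± 0.419 and 0.576 ± 0.641 CPM. MMP9 (gelatinase B) did not reach the filter, with 10, 5 and 7 reads in the EV libraries and 0 in each HDAC8 library. A count of 0 allows up to 3 reads, or 0.102 to 0.148 CPM over the 6 libraries for counting error only. The mean EV level of MMP9 was 2.57-fold the mean of these floors in the HDAC8 libraries. That value is not a bound for each library, because the floors differ and the few EV reads carry counting error too. In the fit with no filter its adjusted p was 0.00835 (edgeR). MMP1 (interstitial collagenase) had 4, 6 and 22 reads in the EV libraries and 7, 3 and 6 in the HDAC8 libraries, which overlapped. MMP3 (stromelysin-1) had 10, 8 and 9 against 4, 1 and 5, with no overlap and an adjusted p of 0.391 in that same fit.

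In the plasminogen activator system the receptor rose and the activator fell. PLAUR (ENSG00000011422, chr19:43646095-43670547) measured 14.3, 12.2 and 14.97 CPM in the EV libraries and 25.4, 24.3 and 25.5 CPM in the HDAC8 libraries. The 2 groups were far apart relative to their spread, and the level was 1.81-fold higher (log2 0.86, SE 0.10, edgeR adjusted p = 5.31e-05), the largest rise among the members that passed. The 20 genes around PLAUR had a median log2 difference of 0.02. Over all members that passed, such medians ran from -0.12 around MMP16 to 0.08 around MMP14, with -0.11 around PLAT and -0.10 around ADAM22. PLAT measured 87.4, 76.6 and 86.7 CPM against 64.9, 61.6 and 64.3 CPM, again with no overlap, and fell by 0.39 on the log2 scale (SE 0.06, edgeR adjusted p = 0.000936). The ratio of PLAUR to PLAT per length was therefore 0.285, 0.277 and 0.301 in the EV libraries and 0.681, 0.687 and 0.692 in the HDAC8 libraries. The ligand of the receptor was nearly absent: PLAU had 0 reads in each EV library and 4, 0 and 1 in the HDAC8 libraries, and PLG had 0 in all 6.

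The PLAUR promoter from RefSeq (GRCh38.p14, chr19:43670120-43670419, minus strand) is shown for its consensus AP-1 motif, TGACTCA or the reverse complement TGAGTCA. Promoters were found for 23 of the tested members, and among these only PLAUR held the motif. The other tested members could not be searched. The match, in capitals, lies at offsets -186 to -180 from the start.
PLAUR promoter: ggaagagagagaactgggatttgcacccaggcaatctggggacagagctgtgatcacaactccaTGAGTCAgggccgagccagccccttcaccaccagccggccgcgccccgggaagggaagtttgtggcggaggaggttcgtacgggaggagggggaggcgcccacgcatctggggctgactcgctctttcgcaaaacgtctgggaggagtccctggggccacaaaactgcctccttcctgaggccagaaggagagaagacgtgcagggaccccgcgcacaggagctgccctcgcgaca

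Of 10 tested ADAM genes, ADAM19 and ADAM17 fell and ADAM22 rose. ADAM19 (meltrin beta, a sheddase of neuregulin; ENSG00000135074, chr5:157395534-157575775) measured 53.9, 50.2 and 53.0 CPM in the EV libraries and 24.4, 25.6 and 28.3 CPM in the HDAC8 libraries. All HDAC8 values were close together and far below the EV values, and the level was 2.01-fold lower (log2 -1.01, SE 0.07, edgeR adjusted p = 1.58e-06), the smallest adjusted p of any member. CYFIP2, which overlaps it on the opposite strand, had 175 to 430 reads, and the 20 genes around ADAM19 had a median log2 difference of 0.00. The ADAM19 promoter (RefSeq, GRCh38.p14, chr5:157575726-157576025, minus strand) is shown as that of the member with the smallest adjusted p, and none of the motifs searched was found in it, so it has no capitals.
ADAM19 promoter: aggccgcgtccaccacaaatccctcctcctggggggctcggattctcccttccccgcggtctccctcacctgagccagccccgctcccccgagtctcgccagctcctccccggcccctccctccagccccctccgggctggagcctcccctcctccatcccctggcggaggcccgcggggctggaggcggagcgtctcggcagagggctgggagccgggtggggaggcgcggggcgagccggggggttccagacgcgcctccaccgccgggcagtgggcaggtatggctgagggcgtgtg

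ADAM22, which lacks a catalytic site and is a receptor for LGI proteins, measured 6.92, 7.45 and 6.18 CPM in the EV libraries and 12.5, 10.1 and 10.8 CPM in the HDAC8 libraries, with no overlap, and rose by 0.70 on the log2 scale (SE 0.14, edgeR adjusted p = 0.00332). The main sheddases differed much less. ADAM17 (TACE) fell from 63.3 ± 2.10 to 55.1 ± 2.50 CPM (log2 -0.20, SE 0.06, edgeR adjusted p = 0.0335), and this no longer passed without any 1 of 5 libraries (every one but HDAC8 replicate 1), with adjusted p from 0.0544 to 0.113. ADAM10, the other major sheddase, measured 225.5 ± 2.89 and 247.0 ± 7.65 CPM and did not pass (log2 0.13, SE 0.04, edgeR adjusted p = 0.0513), although its groups did not overlap. ADAM10 passed in 4 of 11 alternative settings, only 1 of which left out a library. That was the fit without HDAC8 replicate 3, at an adjusted p of 0.0168 (edgeR). Across the alternative settings its adjusted p ran from 0.0168 to 0.183. ADAM23, without a catalytic site, measured 47.6 ± 3.18 and 54.0 ± 0.975 CPM (edgeR adjusted p = 0.0677), again without overlap. ADAM9, ADAM15, ADAM12, ADAM11 and ADAM8 overlapped between groups, at log2 differences between -0.21 and 0.20.

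In the ADAMTS family every gene that passed was lower in the HDAC8 libraries, most of them at low counts. ADAMTS14 and ADAMTS6 would not have reached the filter without the EV libraries, so their direction is not read as a family pattern. In the fit with no filter their adjusted p was 0.0108 and 0.0498 (edgeR). ADAMTS17 had 79, 85 and 95 reads in the EV libraries and 55, 41 and 42 in the HDAC8 libraries, or 3.79 ± 0.108 and 1.90 ± 0.110 CPM, and fell by 0.996 on the log2 scale (SE 0.24, edgeR adjusted p = 0.00988). ADAMTS14, a procollagen N-propeptidase, had 35, 36 and 29 against 13, 13 and 6 reads and fell by 1.72 (SE 0.45, edgeR adjusted p = 0.0154), with adjusted p of 0.0737 and 0.0616 when EV replicate 1 or 2 was left out. ADAMTS6 had 27, 34 and 17 against 13, 5 and 11 reads and fell by 1.55 (SE 0.49, edgeR adjusted p = 0.0392). The groups did not overlap, but the ADAMTS6 call was lost in 5 of 6 fits that left out a library (every one but EV replicate 3), with adjusted p up to 0.165. ADAMTS9, a proteoglycan-cleaving enzyme and the most abundant of the family, went from 59.3 ± 1.21 to 51.2 ± 1.29 CPM (log2 -0.21, SE 0.06, edgeR adjusted p = 0.0180), and its adjusted p was 0.0520 to 0.0609 without EV replicate 1, 2 or 3 or HDAC8 replicate 1.

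The other ADAMTS genes did not pass. ADAMTS4 (aggrecanase-1) had 14, 14 and 13 reads against 8, 3 and 0, the largest fitted difference of any tested member at -2.002 on the log2 scale, but with an SE of 0.74 (edgeR adjusted p = 0.0737). ADAMTS16 had 10, 6 and 16 against 25, 23 and 26 reads, without overlap (log2 1.14, SE 0.46, edgeR adjusted p = 0.103). ADAMTS7, overlapped by MORF4L1 on the opposite strand at 5171 to 8213 reads, measured 0.547 ± 0.169 and 1.17 ± 0.512 CPM (log2 1.11, SE 0.47, edgeR adjusted p = 0.122). ADAMTS1 (aggrecanase and antiangiogenic protease), ADAMTS13 (the von Willebrand factor protease) and ADAMTS15 overlapped between groups, at 17.0 ± 2.14 and 14.8 ± 1.26, 7.42 ± 0.563 and 6.23 ± 1.11, and 0.368 ± 0.150 and 0.553 ± 0.331 CPM.

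The 34 members under the filter were silent or nearly so in these cells. Of these, 19 had at most 3 reads in every library, including 12 with no read at all, namely MMP26, MMP27, MMP28, ADAM2, ADAM7, ADAM18, ADAM29, ADAM30, ADAM33, ADAMTS8, ADAMTS19 and PLG. The other 15 reached 4 to 22 reads in some library. ADAM20, one such gene, had 4 reads in EV replicate 2 and 20 in HDAC8 replicate 3, and shares sequence with ADAM21, so its reads are uncertain. Of the tested members, 14 are overlapped by another gene that passed the filter, and 12 had deposited values that were not whole, which shows that some of their reads were divided between genes. ADAMTS7 and MMP23B have close pseudogene copies and are uncertain for that reason.

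Promoter motifs were searched as a description of the sequences printed above. RefSeq promoters of the same 300-base window were found for 42 of the 70 members, 23 of them tested, and all motifs were searched on both strands. The AP-1 motif was present in 2 (MMP7 and PLAUR), or 4.76%, against 4.92% of 27305 promoters. The E-box CACGTG was present in 5, or 11.9%, against 7.43%, and CATGTG, the core of the M-box bound by MITF, in 3, or 7.14%, against 11.2%. The GC box GGGCGG was present in 26, or 61.9%, against 44.6%, including MMP14, MMP15, TIMP1 and TIMP3. A match is a run of letters and not a measured binding site.

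Of 112 other genes of these pathways, 82 were tested, 18 rose (background 11.1%), 22 fell (background 11.7%) and 42 did not pass, with a median log2 difference of -0.02. Past the log2 difference of 0.58, 7 rose (background 4.07%) and 8 fell (background 3.45%), and the 7 became 4 without EV replicate 3. Of these 7, HPN, MME, SERPINI1 and ADAMTSL3 would not have reached the filter without the HDAC8 libraries. The filter thus favoured their place among the genes that rose. The activators, receptors and cofactors of the metalloproteases held 4 that rose and 8 that fell of 21 tested. PCSK6 (PACE4), a proprotein convertase that can activate proMMPs and ADAMs, fell from 39.0 ± 1.83 to 21.3 ± 2.42 CPM (log2 -0.88, SE 0.09, edgeR adjusted p = 2.52e-05), while FURIN, the main convertase for MMP14, rose by 0.18 (SE 0.06, edgeR adjusted p = 0.0431). The FURIN call was lost without any 1 of 5 libraries (every one but HDAC8 replicate 1), with adjusted p from 0.0510 to 0.154. BSG (basigin, an inducer of MMPs) rose by 0.23, RHBDF2 (iRhom2, the carrier of ADAM17) did not pass at -0.02 with an edgeR adjusted p of 0.883, and the clearance receptor LRP1 did not pass at 0.03 with one of 0.790. The integrin chain ITGA3 fell from 122.8 ± 6.39 to 57.3 ± 2.20 CPM (log2 -1.10, SE 0.06, edgeR adjusted p = 9.73e-08). The syndecans moved in opposite directions, SDC1 from 10.1 ± 2.08 to 28.0 ± 1.73 CPM (log2 1.47) and SDC4 from 69.9 ± 3.80 to 44.4 ± 1.94 CPM (log2 -0.66), and both passed.

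Of 8 tested genes listed as other inhibitors, 1 rose (background 11.1% of all tested genes) and 3 fell (background 11.7%). The gene that rose was CST3 (cystatin C, log2 0.39, edgeR adjusted p = 0.000679), an inhibitor of cysteine proteases. PCOLCE, an enhancer of procollagen processing, is counted in this list too. RECK, a membrane-anchored inhibitor of MMP14, MMP2 and MMP9, did not pass (log2 0.05, edgeR adjusted p = 0.862), SFRP1, a Wnt antagonist that also inhibits ADAM10, fell from 186.7 ± 9.53 to 91.0 ± 6.26 CPM, and the proteoglycan SPOCK1 (testican-1) fell from 5.05 ± 0.482 to 2.04 ± 0.832 CPM. Of 12 tested partners and inhibitors of the plasminogen system, 2 rose and 1 fell. Together these were 25% of those tested, close to the background of 22.7% for either direction. SERPINE2 (protease nexin-1) fell by 0.35, and SERPINI1 (neuroserpin, an inhibitor of tPA) rose from 0.422 ± 0.0636 to 1.10 ± 0.233 CPM (log2 1.36, SE 0.43, edgeR adjusted p = 0.0402). At 8 to 34 reads per library, the SERPINI1 call was lost in 9 of 10 refits, including the one with no filter (0.108) and each that left out a library, with adjusted p up to 0.132.

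A list of other pericellular enzymes, nearly all of them proteases, held 5 that rose (background 11.1%) and 4 that fell (background 11.7%) of 16 tested. The transmembrane serine protease HPN (hepsin) rose from 0.329 ± 0.144 to 1.99 ± 0.315 CPM and MME (neprilysin) from 0.359 ± 0.153 to 1.99 ± 0.543 CPM, both at low counts, and HTRA1 rose from 45.2 ± 1.31 to 68.8 ± 5.58 CPM. HPN and MME, like SERPINI1 and ADAMTSL3, would not have reached the filter without the HDAC8 libraries. With no filter the adjusted p of HPN and MME was 1.05e-05 and 2.26e-05 (edgeR). CTSK (cathepsin K) fell from 5.05 ± 0.528 to 2.94 ± 0.405 CPM, and CTSB (cathepsin B) fell by 0.20. The CTSK call was lost without EV replicate 1, EV replicate 3 or HDAC8 replicate 2, with adjusted p from 0.0593 to 0.0822. Of 3 tested ADAMTS-like genes, ADAMTSL3 rose by 1.39 on the log2 scale (edgeR adjusted p = 0.0355) and 1 other fell. With 9 to 40 reads per library, the ADAMTSL3 call was lost in 7 of 10 refits, including the one with no filter (0.0588) and those without any 1 library but EV replicate 1, with adjusted p up to 0.148. Of 23 tested cell-surface substrates of ADAM10 and ADAM17, 5 rose and 6 fell, together 47.8% against a background of 22.7%. Among them CDH2 (N-cadherin) was up by 0.60, EGF down to 13.3 ± 0.372 from 21.9 ± 0.623 CPM, and the receptor MET down to 25.0 ± 1.04 from 37.4 ± 2.29 CPM. SDC4 is counted in this list too.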

How the data were processed

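RNA of SK-MEL-28 cells was sequenced in 3 libraries labelled EV and 3 labelled HDAC8. The authors deposited RSEM-type estimated counts per gene, not normalized. The submitters' processing notes name Trimmomatic, STAR, RSEM, DESeq2 and GRCh38, without versions. The extraction and library kits differ between the sample labels and the methods (Aurum and NEBNext directional with ribosomal depletion in one, Direct-zol and TruSeq in the other), and the strand setting of counting is not given in the sources used here. A deposited table of the authors' own fold changes and p-values for this contrast was not used.

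The estimated counts, rounded to integers, were fitted with edgeR 4.0.16 in R 4.3.3 (filterByExpr, TMM, glmQLFit and glmQLFTest, no block), HDAC8 over EV, with Benjamini-Hochberg adjustment over 16195 genes. Thresholds were an adjusted p of 0.05 and, where said, a log2 difference of 0.58. SE is the log2 difference divided by the square root of F. TPM used exonic lengths of the reference annotation, with the exons of all transcripts of a gene joined. The floor for a count of 0 was 3 reads. Alternatives were DESeq2 1.42.0, upper-quartile scaling, no filter, at least 10 counts in every library, a replicate block, a log2 threshold of 1, glmTreat and leaving out each library; reading them for HDAC8 and the other pathway genes was decided after seeing the data. The scripts were tested on simulated data.

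The members and gene lists were chosen with earlier results of these data known. Every tested member was named, and of the other lists every gene past both thresholds plus RECK, FURIN, BSG, SERPINE2, CTSB, RHBDF2 and LRP1. CST3 and PCOLCE were named later, to describe their list. Some items are not reported here. WM164 cells were not analysed here.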

Additional observations from a re-analysis of the deposited data

How the results depend on the processing

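The adjusted p of MMP14, TIMP2, MMP2, PLAUR, PLAT, TIMP3, ADAM19, ADAM22, ADAMTS17 and MMP15 stayed below 0.05 with an unchanged direction in every refit: DESeq2, upper-quartile scaling, no filter, a minimum of 10 counts, the replicate block and 6 fits that each left out a library. Of 388 pairs of a member and an alternative, 339 kept direction and side of the threshold, 25 lost the call (MMP16, ADAM17, ADAMTS6, ADAMTS14 and ADAMTS9), 11 gained it (ADAM10, ADAM15 and TIMP1) and 13 changed sign. The counts depend on the fold threshold. The 2 members called higher became 0 at a log2 threshold of 1 and 1 with glmTreat, and stayed 2 with a library left out. The 5 called lower became 3 with at least 10 counts in every library, where fewer genes are tested, 3 at a log2 threshold of 1 and 1 with glmTreat, and ranged from 2 (without EV replicate 1) to 5 with a library left out, with 3 without EV replicate 2 or HDAC8 replicate 1. Members higher at any fold ranged from 5 to 6 and those lower at any fold from 5 (without EV replicate 1 or 2) to 8. Of the other pathway genes, the 7 called higher became 4 with at least 10 counts and 3 with glmTreat and ranged from 4 (without EV replicate 3) to 6, and the 8 called lower became 3 at a log2 threshold of 1 and 3 with glmTreat and ranged from 6 to 9. Where no construction of the alternative is named, the cause was not tested.

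Replicate numbers did not pair the libraries: the correlations of same-numbered libraries' deviations were -0.069, -0.114 and -0.049, and none was the highest for its library. With the replicate block, 2 members were called higher and 4 lower, 5 were higher and 8 lower at any fold, ADAM17, MMP16 and ADAMTS6 (adjusted p = 0.0955) lost the call and TIMP1 gained it (0.0491, edgeR). The HDAC8 difference ranged from -0.16 to 0.080 with a library left out. The members that changed sign had not passed the test: MMP11 was -0.032 with DESeq2, -0.014 without a filter, -0.19 with the replicate block and between -1.39 and 0.66 with a library left out, ADAM11 between -0.11 and 0.22, ADAM8 between -0.40 and 0.082, MMP17 between -0.022 and 0.17 and MMP23B between -0.55 and 0.011. Depth limits the members with few reads, MMP9, ADAMTS4, ADAMTS6 and ADAMTS14 above all, and 3 libraries a group limit all of them.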

Other observations

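Some genes whose symbols resemble those of the members were left out by the rule. The antisense-type gene MMP24OS, which overlaps MMP24 on the opposite strand and is annotated as protein-coding, measured 36.3 ± 3.23 CPM in the EV libraries and 31.0 ± 0.117 CPM in the HDAC8 libraries and did not pass (log2 -0.23, SE 0.08, edgeR adjusted p = 0.0551). PLGRKT, a membrane receptor for plasminogen, measured 7.04 ± 0.438 and 7.28 ± 1.03 CPM and did not pass (log2 0.05, SE 0.16, edgeR adjusted p = 0.863). The MMP23B pseudogene copy MMP23A had no read in any library. These genes were named after their values were seen.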
